A study of Mus musculus with 6 samples.

Results

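The genes for antimicrobial peptides and for calprotectin were followed through the cells of mouse dorsal skin. The set held 10 genes, taken by symbol from the 31053 genes of the count matrices: S100a8 and S100a9, the β-defensin genes Defb3, Defb4, Defb6 and Defb14, the neutrophil granule genes Camp, Ngp and Ltf, and the lysozyme gene Lyz1. Messenger RNA was counted as unique molecular identifiers (UMIs, 1 for each captured transcript) by droplet single-cell RNA sequencing in 3 groups of 2 libraries each. The mice were female C57BL/6J, 8 to 10 weeks old, and carried no engineered allele. The Sham group had no treatment. In the IMQ group, 62.5 mg of cream with 5% imiquimod, a Toll-like receptor 7 agonist, was put on the back every day for 4 days and the mice were killed 1 day after the last dose. The IMQ+SHP099 group had the same cream and the allosteric SHP2 inhibitor SHP099 at 10 mg/kg by gavage every day for 4 days, and the labels leave unclear whether these days ran alongside the cream or came after it. Each library pooled the skin of 2 (Sham) or 3 (IMQ and IMQ+SHP099) mice, so the library was the replicate (n = 2 per group) and the spread between mice was not measured. An exact permutation test of 2 against 2 libraries could not go below p = 0.333.

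Antimicrobial peptides are small, mostly cationic proteins that damage microbial membranes or withhold metals and iron from microbes. S100A8 and S100A9 pair to form calprotectin, which binds zinc and manganese. It makes up a large part of neutrophil cytosol and is also made by stressed epidermis. β-defensins are made by epithelia, where interleukin-17 and interleukin-22 are known inducers. Cathelicidin (Camp), neutrophilic granule protein (Ngp) and lactoferrin (Ltf) are proteins of the secondary granules and are transcribed while neutrophils mature, mostly in the bone marrow. Lysozyme cuts the bacterial cell wall.

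The 6 matrices held 55201 barcodes, of which 50850 passed the study's limits, with median depths of 5645 to 18264 UMIs per cell. Both extremes were IMQ+SHP099 libraries. The study reported fewer cells after these limits than were kept here. Cells were placed in classes by marker genes, none of which was one of the 10, and levels are given as UMIs of a gene per 1000000 UMIs of that class in that library (UPM). The libraries differed in makeup: keratinocytes made up 70.2% and 20.6% of Sham cells, 16.5% and 7.71% of IMQ cells, and 62.0% and 6.00% of IMQ+SHP099 cells. The 2 Sham libraries held 1 and 6 neutrophils, the IMQ libraries 144 and 295, and the IMQ+SHP099 libraries 8 and 83, so no test of neutrophils against Sham was made, and values from under 10 cells are given only as listed. Among the libraries, 589 kept cells carried a barcode that also occurred in another library. Suprabasal cells were those with Krt1 and Krt10, basal cells those with Krt5 and little Krt1 and Krt10, and granular cells those with at least 3 late-differentiation genes. In the granular gate the summed level of those late genes was 10820 and 19590 UPM in Sham and 5050 to 8364 UPM in the treated libraries. The treated granular cells thus carried less of the late genes than those of Sham.

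Where the files placed the genes frames what follows. On mouse build GRCm38 with GENCODE vM21, S100a8 (ENSMUSG00000056054) lay at chr3:90668978-90670035 on the plus strand and S100a9 (ENSMUSG00000056071) at chr3:90692632-90695721 on the minus strand. The 4 defensin genes lay together on the plus strand of chromosome 8: Defb14 at chr8:19194357-19195212, Defb4 at chr8:19198706-19201545, Defb6 at chr8:19225478-19228209 and Defb3 at chr8:19293360-19295291. Camp (chr9:109847379-109849617, minus), Ngp (chr9:110419747-110423012, plus) and Ltf (chr9:111019271-111042767, plus) lay on chromosome 9, and Lyz1 at chr10:117287797-117292868 on the minus strand. All 10 are protein-coding. Of the 50-base words in their exons, 16.1% of those of Lyz1 also occurred in Lyz2 and 5.68% of those of Defb4 in Defb8, so reads of these genes could be split or lost in counting. The other 8 shared none with another gene.

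The promoters of both calprotectin genes and of Defb3 and Defb6 are shown because S100a8 and S100a9 were called together in every keratinocyte layer, while of Defb3 and Defb6, which are close in sequence, only Defb3 was called in basal cells and in the upper hair follicle. Each is the 250 bases before the RefSeq start on GRCm38.p6, 5′ to 3′ on the gene's own strand. Capitals mark matches to the C/EBP letters TTGCNNAA. The first is at chr3:90668821-90669070, the second at chr3:90695722-90695971, the third at chr8:19293111-19293360 and the fourth at chr8:19225228-19225477.
S100a8: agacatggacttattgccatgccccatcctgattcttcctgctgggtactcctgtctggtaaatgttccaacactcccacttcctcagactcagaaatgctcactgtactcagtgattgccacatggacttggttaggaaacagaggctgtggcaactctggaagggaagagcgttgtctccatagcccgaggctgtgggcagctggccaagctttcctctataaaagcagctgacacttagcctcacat
S100a9: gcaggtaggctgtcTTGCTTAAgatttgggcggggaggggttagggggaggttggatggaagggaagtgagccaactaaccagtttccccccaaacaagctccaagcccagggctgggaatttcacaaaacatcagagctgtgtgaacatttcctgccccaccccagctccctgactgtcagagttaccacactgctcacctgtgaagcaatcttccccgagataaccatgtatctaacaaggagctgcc
Defb3: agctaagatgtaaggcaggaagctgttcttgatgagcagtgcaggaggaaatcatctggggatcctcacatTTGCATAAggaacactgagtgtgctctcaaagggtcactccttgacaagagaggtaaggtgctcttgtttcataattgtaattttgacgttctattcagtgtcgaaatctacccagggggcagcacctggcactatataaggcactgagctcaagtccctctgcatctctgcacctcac
Defb6: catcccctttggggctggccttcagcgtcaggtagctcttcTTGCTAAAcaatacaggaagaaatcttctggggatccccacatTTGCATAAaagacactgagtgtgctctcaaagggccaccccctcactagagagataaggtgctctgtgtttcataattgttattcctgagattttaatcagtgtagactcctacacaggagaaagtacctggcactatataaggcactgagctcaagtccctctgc
RefSeq promoters were matched for 8 of the 10 genes, all but Defb4 and Defb14. In windows of 300 bases (250 before and 50 after the start), searched on both strands, TTGCNNAA occurred in 6 of the 8 (S100a9, Defb3, Defb6, Ngp, Ltf and Lyz1) against 10.8% of 32851 promoters of that length. The NF-kB letters, GGGA and CC with any 4 letters between them, occurred in 1 of the 8, Camp, against 20.7% of all. The STAT letters TTCNNNGAA (8.30% of all) and the AP-1 letters TGANTCA (7.81%) occurred in none of the 8. The Defb3 and Defb6 windows were identical at 244 of 315 aligned positions (77.5%), and TTGCATAA occurred in both, beginning at base -179 from the start of Defb3 and at -166 from that of Defb6. Only Defb6 of this pair held a second match, at -209. The S100a8 and S100a9 windows were identical at 51.0% of aligned positions. GENCODE places the start of S100a8, and also those of Camp, Ngp and Ltf, upstream of the RefSeq start. The NF-kB match of Camp lay at base 35 from the RefSeq start, so its place in the window depends on the start used.

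Calprotectin was the most abundant product of the set in treated skin, while in Sham Defb6 was, with 24156 and 11789 UMIs in all cells beside 256 and 311 for S100a8 and 264 and 422 for S100a9. Calprotectin went from near 0 to percent levels of the keratinocyte transcriptome under IMQ. In suprabasal cells S100a8 stood at 1.57 and 0.455 UPM in the Sham libraries, 19546 and 20093 UPM in IMQ, and 20077 and 29684 UPM in IMQ+SHP099. In basal cells it was 0.312 and 0.483 UPM in Sham, 11326 and 7159 UPM in IMQ, and 12014 and 17937 UPM in IMQ+SHP099. Every treated library lay far above both Sham libraries in each of these layers. S100a9 followed it, with 2.33 and 0.455 UPM in Sham suprabasal cells, 22380 and 19970 UPM in IMQ, and 23491 and 24356 UPM in IMQ+SHP099. Granular cells reached 41370 and 41357 UPM of S100a8 in IMQ, where Sham had 6.00 and 0 UPM. In the upper hair follicle class, gated among keratinocytes by Krt79, S100a8 was lower, 6107 and 5781 UPM in IMQ, beside 15.9 and 2.73 UPM in Sham. As ratios of summed UMIs, IMQ over Sham was 28854-fold in basal, 15662-fold in suprabasal and 8381-fold in granular cells for S100a8, and 695-fold in the upper hair follicle. These ratios rest on 16, 50, 19 and 56 Sham UMIs.

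**Figure D1:**
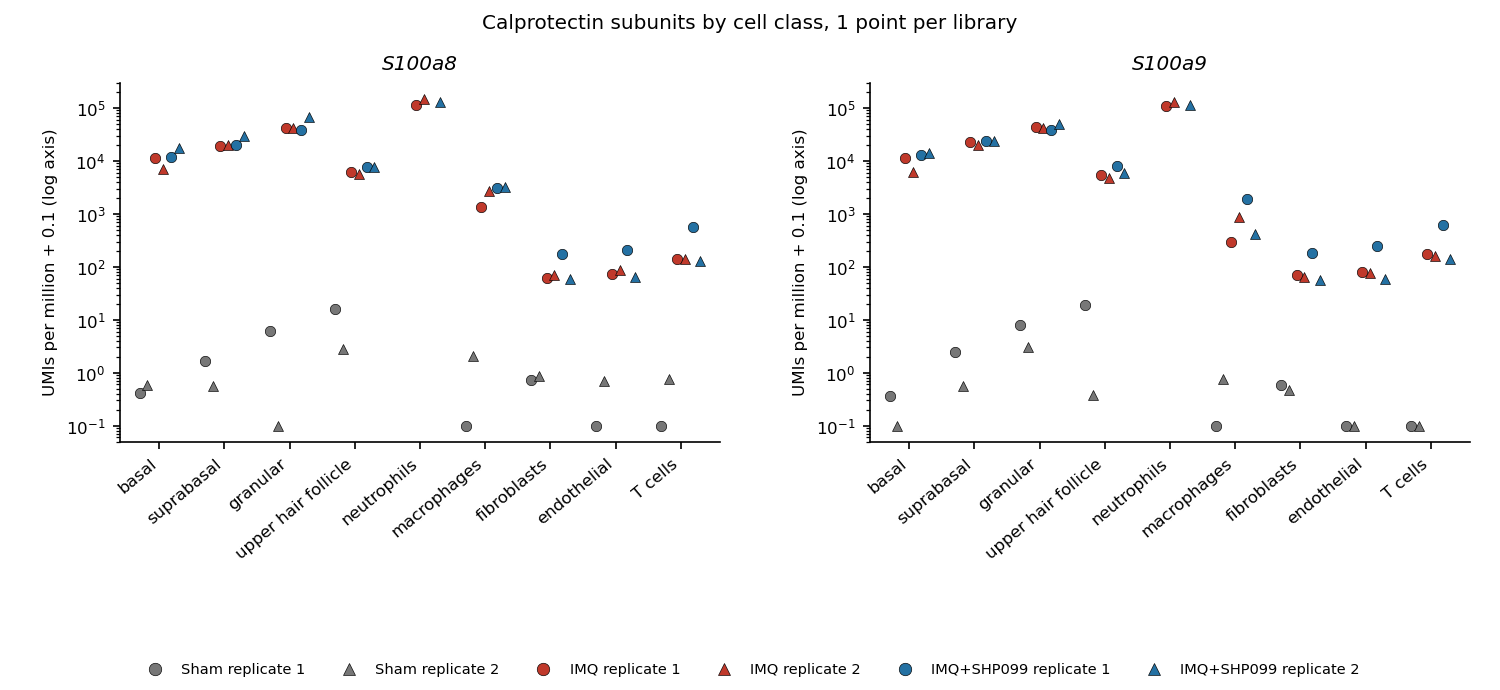
S100a8 and S100a9 level in each library (points; UPM, log axis) by cell class, with Sham, IMQ and IMQ+SHP099 libraries in separate colours. A constant of 0.1 was added so that zeros could be drawn, and libraries with under 10 cells of a class were left out. The treated libraries lie above both Sham libraries in every keratinocyte class, and neutrophils and granular keratinocytes carry the highest levels.

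In edgeR's quasi-likelihood test on UMIs summed per library, S100a8 rose in suprabasal cells by a log2 fold change of 14.35 (SE 0.860, adjusted p = 1.48e-05) and S100a9 by 13.97 (SE 0.962, adjusted p = 3.02e-05). In basal cells the log2 fold changes were 14.74 (SE 0.808, adjusted p = 1.32e-04) for S100a8 and 15.44 (SE 1.02, adjusted p = 1.65e-04) for S100a9. Nearly every suprabasal cell of IMQ skin carried the transcript: 99.7% and 100% of IMQ suprabasal cells had an S100a8 UMI, against 0.488% and 0.916% of Sham cells. The treated cells were also deeper, with suprabasal medians of 35903 and 36903 UMIs in IMQ and 12073 and 18339 in Sham, yet with each cell thinned to 2000 UMIs the shares were 99.2% and 98.9% against 0.200% and 0.184%. The same calprotectin RNA also appeared in cells that should lack it. Fibroblasts held 62.8 and 68.7 UPM of S100a8 in IMQ and 171 and 60.1 UPM in IMQ+SHP099, beside 0.633 and 0.779 UPM in Sham, and 44.2% and 42.7% of IMQ fibroblasts had a UMI. The highest fibroblast level was in the library where keratinocytes made up 62.0% of cells, and the part of free keratinocyte RNA in it was not tested. S100a8 in endothelial cells (72.1 and 87.4 UPM in IMQ) and in T cells (142 and 140 UPM) lay in the same low range. In keratinocyte layers the IMQ level was at least 5781 UPM, while in these 3 classes it did not exceed 142 UPM.

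The keratinocyte layers were not equal. Within libraries, suprabasal cells exceeded basal cells by 1.34 on the log2 scale for S100a8 (SE 0.203, adjusted p = 6.36e-04) and by 1.62 for S100a9 (SE 0.278, adjusted p = 0.00130) in edgeR with the library as a block. All 6 members tested were called higher in suprabasal cells, beside 54.4% of all genes called in that comparison in either direction. For calprotectin, the IMQ response itself was not shown to differ between layers: the response in suprabasal minus basal cells was -0.55 (SE 0.618, adjusted p = 0.650) for S100a8 and -1.69 (SE 0.612, adjusted p = 0.134) for S100a9, which passed without TMM scaling (-1.87, adjusted p = 0.0410).

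Neutrophils held the highest calprotectin level per UMI. S100a8 made up 114453 and 147359 UPM of IMQ neutrophils and 128265 UPM in the IMQ+SHP099 library with 83 neutrophils. S100a9 made up 110403, 132528 and 114933 UPM in the same libraries. The 8 neutrophils of the other IMQ+SHP099 library carried 24059 UPM of S100a8. Against macrophages of the same libraries neutrophils were higher by 6.76 for S100a8 (SE 0.446) and 8.91 for S100a9 (SE 0.481) on the log2 scale, and all 5 members tested were called higher, beside 58.8% of all genes. Keratinocytes nevertheless held most of the calprotectin message. They held 84.6% and 52.2% of all S100a8 UMIs of the IMQ libraries and 97.0% and 81.3% of those of the IMQ+SHP099 libraries. The share of neutrophils was 10.3% and 34.2% in IMQ, against 0.0268% and 11.4% in IMQ+SHP099.

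In macrophages calprotectin went with an unequal ratio of its subunits. S100a8 stood at 0 and 1.98 UPM in Sham macrophages, 1337 and 2763 UPM in IMQ, and 3096 and 3233 UPM in IMQ+SHP099. S100a9 stood at 0 and 0.659 UPM in Sham, 297 and 869 UPM in IMQ, and 1893 and 409 UPM in IMQ+SHP099. Both were higher in IMQ than in Sham in edgeR, by 10.28 (SE 0.669, adjusted p = 2.91e-05) for S100a8 and 9.91 (SE 1.14, adjusted p = 8.00e-04) for S100a9 on the log2 scale. The macrophage gate joined markers such as C1qa and Mrc1 with Ccr2, Ly6c2 and Plac8. Leiden clusters put 165 and 943 Sham cells in a dendritic class, beside 113 and 125 IMQ cells. The part of a shift between kinds of myeloid cell in these differences was not tested. With Leiden clusters in place of the gates, which held 56.7% of the gated macrophages, 2 and 32 Sham macrophages were left. Sham 1 then fell under the minimum of 10 cells, so 1 Sham library was fitted. S100a8 differed there by 8.95 and S100a9 by 15.68 on the log2 scale. Neither this fit nor the fit without Sham 2, which also had 1 Sham library, kept both calls. S100a8 UMIs outnumbered S100a9 UMIs 4.50 and 3.18 to 1 in IMQ macrophages and 1.64 and 7.90 to 1 in IMQ+SHP099 macrophages. In keratinocytes of the same libraries the ratio was 0.922, 1.04, 0.893 and 1.23. On the log2 scale the macrophage ratio exceeded that of keratinocytes by a mean of 1.86 (SD 0.79) and that of fibroblasts by 1.89 (SD 0.90), in 4 of 4 treated libraries each time. The exact two-sided sign-flip test over 4 libraries gave p = 0.125 for both, the smallest it can give. Against neutrophils the excess was 2.15 (SD 0.66) in 3 of 3 libraries, with an exact p of 0.250. An S100a8 UMI was found in 69.3% and 70.6% of IMQ macrophages (42.4% and 47.1% thinned) and in 44.2% and 42.7% of IMQ fibroblasts (13.1% and 12.9% thinned), at median depths of 7806 and 6992 UMIs against 8739 and 9314. Within libraries macrophages exceeded fibroblasts by 4.70 for S100a8 (SE 0.558, adjusted p = 2.16e-05) and by 3.13 for S100a9 (SE 0.330, adjusted p = 7.99e-06), and all 4 members tested were called higher, beside 61.5% of all genes.

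**Figure D2:**
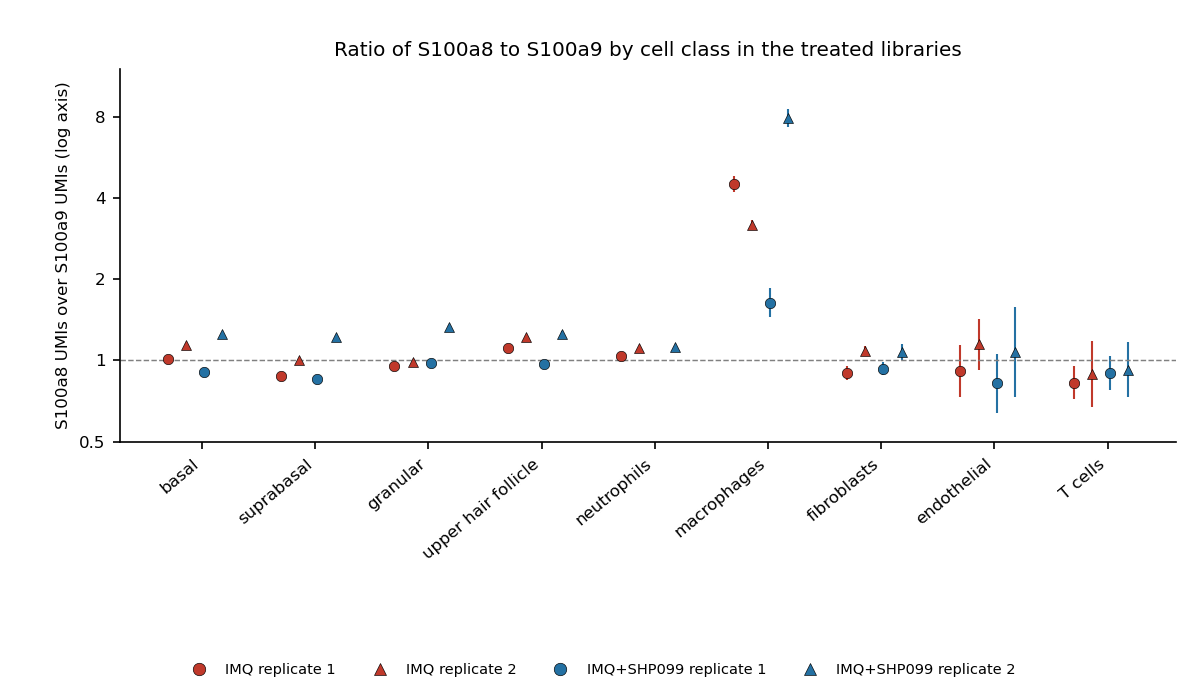
Ratio of S100a8 to S100a9 UMIs (log axis) in the classes of each treated library with at least 10 cells, with bars for the 95% interval of the count ratio (counting error only). The 4 macrophage points lie between 1.64 and 7.90, and keratinocytes, neutrophils, fibroblasts, endothelial cells and T cells lie close to 1.

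The summed level of the neutrophil markers was higher in treated than in Sham macrophages. All 9 neutrophil markers were detected in the macrophages of 3 treated libraries and 7 of 9 in IMQ+SHP099 1, where Cxcr2 and Retnlg were at 0. Their summed level was 70.8 and 115 UPM in Sham, 656 and 570 UPM in IMQ, and 349 and 606 UPM in IMQ+SHP099. Of the IMQ sums, Mmp8 made up 282 and 213 UPM. Csf3r stood at 20.2 and 27.3 UPM in Sham and 70.4 and 73.4 UPM in IMQ. Cxcr2 stood at 0 and 0.659 UPM in Sham and 0.314 and 4.42 UPM in IMQ. Among the treated libraries, IMQ+SHP099 1 had the lowest sum and the highest S100a9 level. In that library 1 of 49 macrophages held 330 of the 423 S100a9 UMIs, and the cell with most S100a8 held 403 of 692. Its S100a8 to S100a9 ratio of 1.64 rests on these counts. The message was also uneven between cells, since the 5 cells with most S100a9 held 52.6% and 50.04% of the S100a9 UMIs of IMQ macrophages and 90.1% and 63.8% of those in IMQ+SHP099, while for S100a8 the 5 highest cells held 28.7%, 25.2%, 83.5% and 26.7%. The part of neutrophil RNA in the macrophage values was not tested.

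The inducible β-defensins Defb3, Defb4 and Defb14 were keratinocyte transcripts that were close to absent in Sham. In IMQ their levels increased from basal through suprabasal to granular cells. Keratinocytes outside these layers and the upper hair follicle carried them too. Defb3 stood there at 44.1 and 15.7 UPM in IMQ, Defb4 at 19.8 and 37.2 UPM and Defb14 at 35.0 and 24.0 UPM. Those cells held 25.61% and 14.1% of all Defb3 UMIs, 17.75% and 37.25% of Defb4 and 35.94% and 12.41% of Defb14. Defb4, the mouse relative of human β-defensin 2, had no UMI in any class of either Sham library. Among Sham keratinocytes it was found in 0 of 6026 and 0 of 1695 cells, which allows shares of up to 0.0498% and 0.177% of cells with a UMI. In suprabasal cells it reached 23.1 and 8.97 UPM in IMQ, and 19.3 and 4.64 UPM in IMQ+SHP099. In granular cells it reached 109 and 59.2 UPM in IMQ, and 92.2 and 90.5 UPM in IMQ+SHP099. Against a floor of 3 UMIs over the Sham group, IMQ was at least 246-fold higher in suprabasal cells and at least 109-fold higher in granular cells. In basal cells only 9 UMIs were counted in IMQ 1 and none in IMQ 2.

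Defb14, the mouse relative of human β-defensin 3, was 0.209 and 0 UPM in Sham suprabasal cells, 10.9 and 23.7 UPM in IMQ, and 12.9 and 26.5 UPM in IMQ+SHP099. It had no UMI in Sham granular cells and reached 71.9 and 89.9 UPM in IMQ and 50.1 and 225 UPM in IMQ+SHP099. Defb3 was 0.279 and 0 UPM in Sham suprabasal cells, 23.4 and 15.3 UPM in IMQ, and 24.7 and 41.8 UPM in IMQ+SHP099. In granular cells it stood at 0.316 and 0 UPM in Sham, 236 and 41.3 UPM in IMQ, and 47.8 and 178 UPM in IMQ+SHP099. The treated granular libraries, with 22 to 69 cells each, thus spread widely for Defb3, while every one lay above both Sham libraries. In suprabasal cells the log2 fold changes of IMQ over Sham were 6.85 for Defb3 (SE 0.582, adjusted p = 6.17e-05) and 7.03 for Defb14 (SE 0.684, adjusted p = 1.25e-04).

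In granular cells of IMQ, a Defb14 UMI was found in 56.7% and 72.7% of cells (13.8% and 23.8% thinned), a Defb4 UMI in 36.7% and 40.9% (17.2% and 9.52% thinned) and a Defb3 UMI in 33.3% and 18.2% (13.8% and 4.76% thinned). These shares rest on 30 and 22 cells and move with depth. In IMQ fibroblasts each of the 3 was found in at most 0.0903% of cells. Suprabasal cells exceeded basal cells of the same libraries by 5.10 for Defb4 (SE 0.522), 3.21 for Defb3 (SE 0.278) and 3.04 for Defb14 (SE 0.299) on the log2 scale, each called by edgeR. The layer difference in the IMQ response was 1.90 for Defb3 (SE 1.26, adjusted p = 0.413) and 2.05 for Defb14 (SE 1.37, adjusted p = 0.419), neither past the threshold, and for Defb4 it could not be estimated because both Sham layers were at 0.

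**Figure D3:**
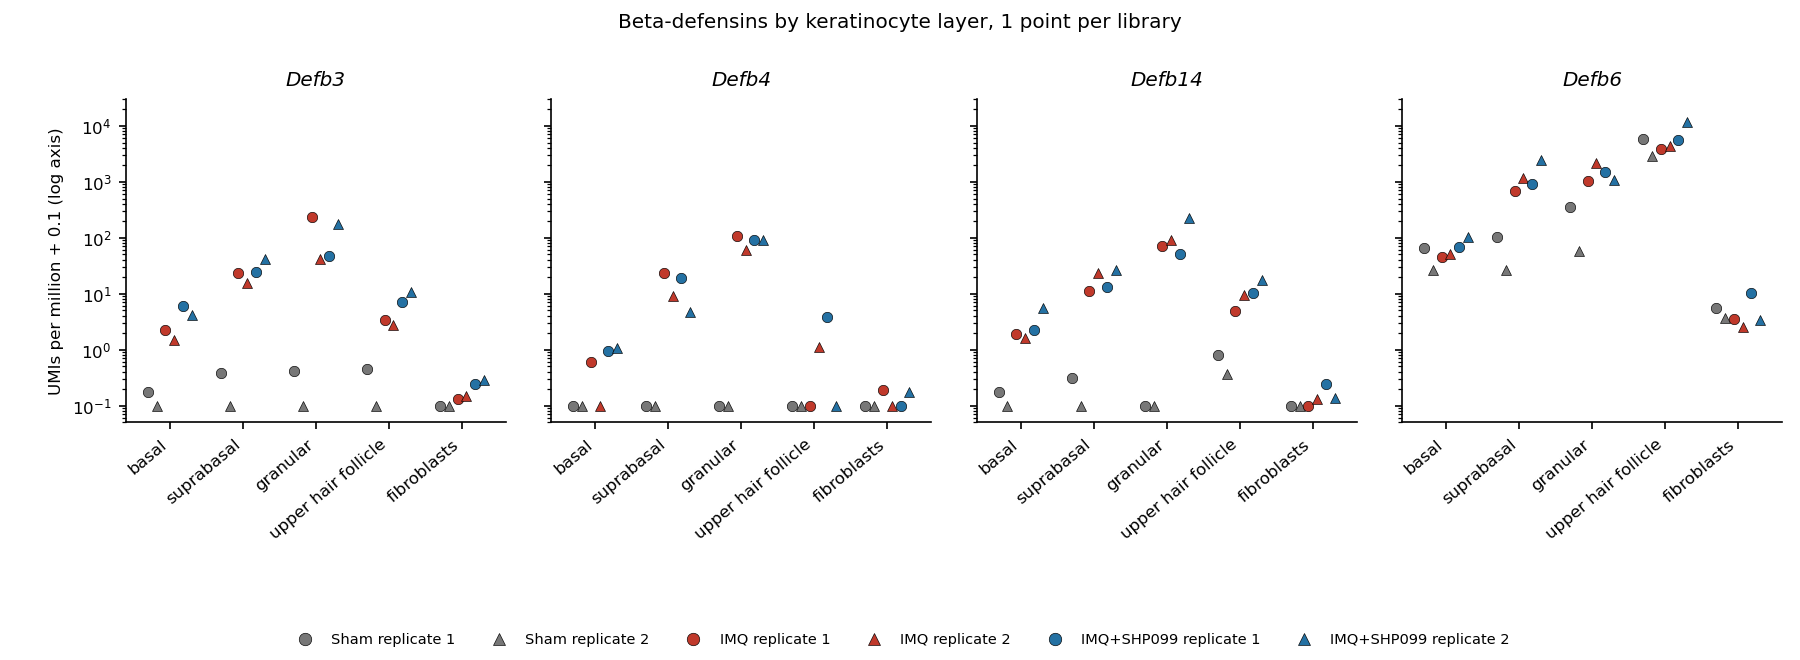
Levels of the 4 β-defensin genes in each library (UPM plus 0.1, log axis, so that libraries at 0 sit at 0.1) in the keratinocyte layers, the upper hair follicle and fibroblasts. Defb3, Defb4 and Defb14 rise from basal to granular cells in treated libraries, while Defb6 is high in the upper hair follicle of all 6 libraries.

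Defb6 differed from the other defensins in where it was found and in what IMQ did to it. It was already expressed in Sham, mostly in the upper hair follicle, at 5689 and 2916 UPM, and stood there at 3829 and 4329 UPM in IMQ and 5652 and 11840 UPM in IMQ+SHP099. The Sham and IMQ ranges overlapped, and the log2 fold change was 0.12 (SE 0.537, adjusted p = 0.913). In the Sham libraries the upper hair follicle held 68.0% and 90.6% of all Defb6 UMIs. In suprabasal cells, outside the Krt79 gate, Defb6 stood at 101 and 26.1 UPM in Sham, 687 and 1153 UPM in IMQ, and 918 and 2474 UPM in IMQ+SHP099. IMQ over Sham was 10.4-fold by summed UMIs, with a log2 fold change of 4.06 (SE 0.720, adjusted p = 0.00374), and the share of cells with a UMI went from 19.6% and 13.0% to 83.1% and 83.7% (7.75% and 3.86% to 53.6% and 53.7% thinned). In granular cells it went from 349 and 56.9 UPM to 1007 and 2115 UPM, a log2 fold change of 3.37 (SE 0.726, adjusted p = 0.00783). In basal cells it stood at 65.5 and 26.6 UPM in Sham and 44.4 and 50.4 UPM in IMQ, with overlapping ranges and a log2 fold change of 0.09 (SE 0.50, adjusted p = 0.925). With Leiden clusters in place of the gates, the Defb6 value of basal cells was -3.76 (adjusted p = 0.00287 in edgeR). That basal class held 115 and 19 IMQ cells, against 461 and 317 in the gate, while 548 and 395 IMQ keratinocytes fell in unnamed clusters. The IMQ response was larger in suprabasal than in basal cells by 3.98 on the log2 scale (SE 0.315, adjusted p = 3.88e-04 in edgeR's interaction test with the library as a block). Of the 7 members in that fit (Lyz1 and the calprotectin and defensin genes), Defb4 could not be estimated and Defb6 was the 1 called, beside 7.02% of all genes. The stress keratins Krt6a, Krt6b and Krt16 moved the same way in these suprabasal cells, from a summed 1103 and 411 UPM in Sham to 23680 to 27030 UPM in the treated libraries. Fibroblasts held 2.45 to 10.2 UPM of Defb6.

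Over the whole keratinocyte class, 7 of 7 members tested were called higher in IMQ than in Sham, beside 14.7% of all genes called in either direction. By layer the counts were 4 of 6 in basal cells (16.6% of all genes), 6 of 6 in suprabasal cells (19.7%), 6 of 6 in granular cells (23.4%) and 4 of 5 in the upper hair follicle (7.21%). The median log2 fold change of the tested members was 9.22 in keratinocytes, beside -0.08 over all genes tested there. These counts and the median are descriptions, since a gene such as Defb4 could pass the filter on low counts only through treated libraries, and Camp, Ltf and Lyz1 had too few UMIs in keratinocytes to be tested. In fibroblasts 3 of 5 were called higher (0.432%), in macrophages 2 of 4 (5.51%), in endothelial cells 1 of 2 (0.1%) and in T cells 0 of 3 (0.0116%). Without Sham 2, the counts were 2 in the upper hair follicle, 1 in macrophages and 0 in fibroblasts and endothelial cells, and without IMQ 2 the upper hair follicle count was also 2. Over all cells of a library together, edgeR called 0 of 10 members and 0.0% of 17382 genes (1266 at an unadjusted p under 0.05), with log2 fold changes of 11.12 for S100a8 (SE 1.40, adjusted p = 0.266) and 10.90 for S100a9 (SE 1.53, adjusted p = 0.340). DESeq2 called 8 of the 10 there, and edgeR with the replicate number as a block called 6, where deviations of same-numbered libraries correlated at 0.527 to 0.651 over genes. These all-cell sums mix the change per cell with the unlike shares of keratinocytes.

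Among keratinocytes Ngp was called higher in IMQ, at 2.21 and 0.446 UPM against 0 in Sham. These values rest on 97 and 11 UMIs, and 89 of the 97 lay in 2 of the 150 keratinocytes outside the 4 named layers. Of these 89, 49 lay in 1 cell. Against fibroblasts of the same libraries, keratinocytes were higher by 7.10 for S100a8 (SE 1.47), 7.25 for S100a9 (SE 1.33) and 8.03 for Defb6 (SE 0.744), and lower for Camp by a log2 fold change of -5.54 (SE 0.421). All 4 members tested were called, beside 73.4% of all genes.

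The granule genes Camp, Ngp and Ltf were found at their highest levels in neutrophils, unevenly between cells. In IMQ neutrophils Ngp stood at 8090 and 6791 UPM, Camp at 3246 and 2428 UPM and Ltf at 629 and 896 UPM. In the IMQ+SHP099 library with 83 neutrophils they stood at 1161, 92.7 and 104 UPM. The library with 8 neutrophils had 1 UMI each of Ngp and Ltf and none of Camp, and neither Sham library (1 and 6 neutrophils) had any. An Ngp UMI was found in 47.9% and 58.3% of IMQ neutrophils and a Camp UMI in 18.8% and 23.4%, at median depths of 4479 and 4230 UMIs. The 5 neutrophils with most Camp held 88.2% and 51.7% of the Camp UMIs of the IMQ libraries, and the 5 with most Ngp held 57.7% and 28.4% of the Ngp UMIs. In macrophages of any library no more than 3 UMIs of any of these genes were counted.

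**Figure D4:**
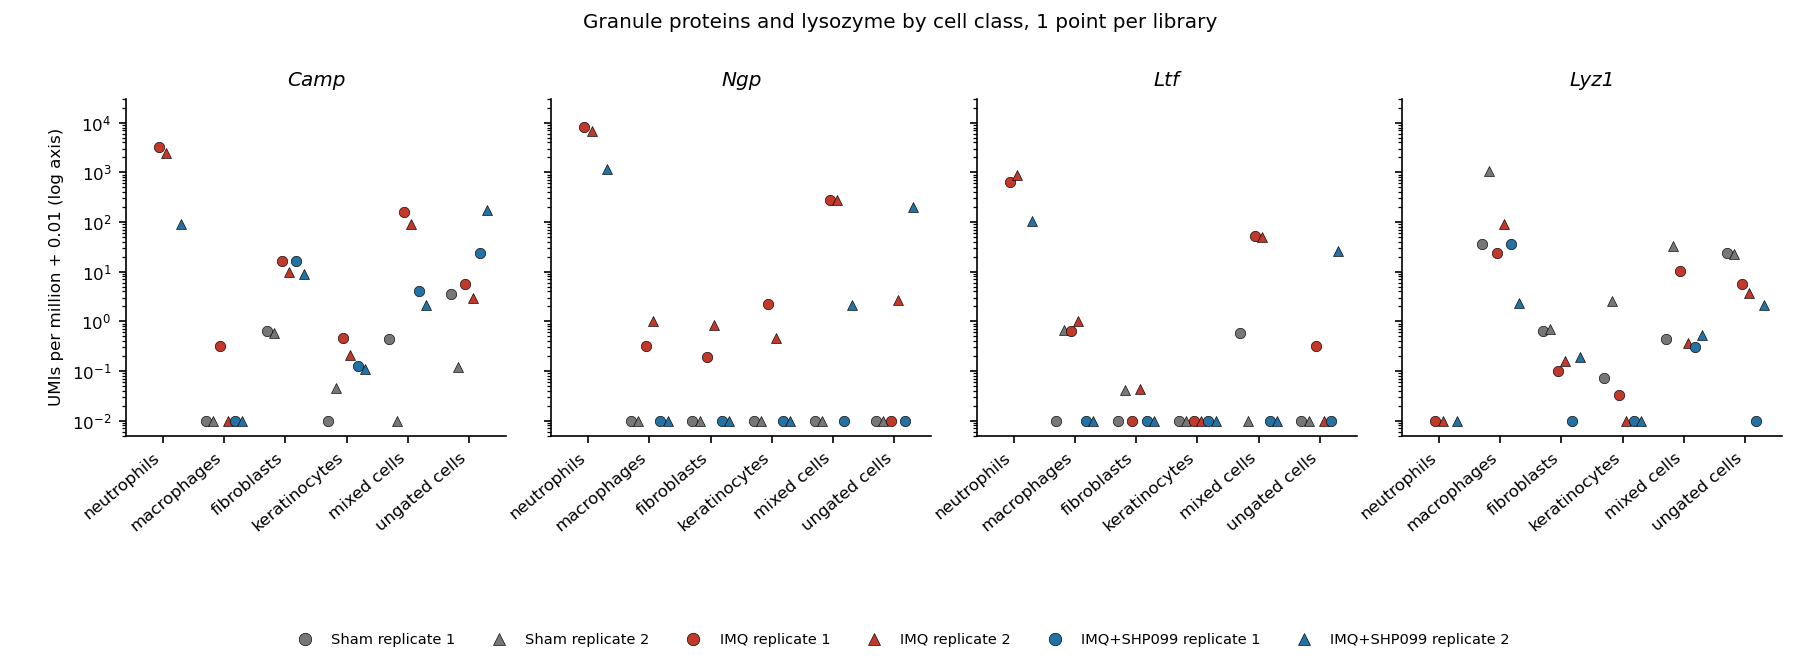
Levels of Camp, Ngp, Ltf and Lyz1 in each library (UPM plus 0.01, log axis) in neutrophils, macrophages, fibroblasts, keratinocytes and the cells that passed several gates or none, for libraries with at least 10 cells of a class. Neutrophils carry Camp, Ngp and Ltf, treated fibroblasts carry a low level of Camp, and Lyz1 is highest in macrophages of Sham 2.

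For IMQ+SHP099 against IMQ in neutrophils, 3 of 5 members were called lower, beside 3.15% of all genes. The log2 fold changes were -4.86 for Camp (SE 0.357), -2.61 for Ngp (SE 0.269) and -2.83 for Ltf (SE 0.351), while S100a8 stood at 0.02 (SE 0.180, adjusted p = 0.975) and S100a9 at -0.03 (SE 0.181, adjusted p = 0.973). This contrast rests on 1 IMQ+SHP099 library, whose spread is assumed to be that of the IMQ pair. The values also moved with the gate. A cell of that library with 16891 UMIs passed no gate, having 1 Csf3r UMI and 5 Retnlg UMIs, but carried 587 Ngp, 463 Camp and 76 Ltf UMIs, 64.9% of all Ngp and 59.7% of all Camp UMIs of its library. A looser neutrophil gate, chosen after seeing the data, took in this cell and others. It held 169 and 311 neutrophils in IMQ and 11 and 93 in IMQ+SHP099, so the library with 8 gated neutrophils entered the fit as well. Under it the log2 fold changes were -1.68 for Camp (adjusted p = 0.593), -2.22 for Ngp (adjusted p = 0.146) and -1.80 for Ltf (adjusted p = 0.412), and no member was called. The part of any 1 cell or library in this change was not tested. Leiden clusters in place of gates gave -1.42 for Camp, -1.93 for Ngp and -1.59 for Ltf, none called.

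Outside neutrophils, no member was called for IMQ+SHP099 against IMQ in the main fits. With no filter on low counts, a member was called in keratinocytes, macrophages, fibroblasts and endothelial cells. With Leiden clusters, Camp, Ngp and Ltf were called lower in macrophages. In edgeR 0 members passed for IMQ+SHP099 against IMQ in all cells, keratinocytes, basal, suprabasal and upper hair follicle cells, macrophages, fibroblasts, endothelial cells and T cells, where 0.0% of all genes were called, nor in granular cells, where 0.0153% were. In suprabasal cells S100a8 differed by 0.37 on the log2 scale (SE 0.499), Defb6 by 0.88 (SE 0.640) and Defb3 by 0.76 (SE 0.397). In macrophages S100a8 differed by 0.66 (SE 0.387) and S100a9 by 0.96 (SE 0.608). At an unadjusted p under 0.05 stood Defb3 in basal cells (log2 fold change 1.63) and in the upper hair follicle (1.56), Defb6 in T cells (1.93), Camp over all cells (-2.29) and Ngp in keratinocytes (-9.22), each with an adjusted p of at least 0.997 in edgeR. The SEs, 0.341 to 1.77 in keratinocytes, leave room for changes of several-fold in either direction.

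Camp also had a low level in fibroblasts of treated skin. It stood at 0.633 and 0.561 UPM in Sham, 16.7 and 9.98 UPM in IMQ, and 16.4 and 8.87 UPM in IMQ+SHP099, with no overlap between Sham and treated libraries. IMQ over Sham had a log2 fold change of 4.66 (SE 0.564, adjusted p = 0.0298 in edgeR), and without Sham 2 it was 4.24 with an adjusted p of 0.154. A Camp UMI was found in 5.09% and 5.07% of IMQ fibroblasts and in 0.380% and 0.409% of Sham fibroblasts (1.45% and 1.23% against 0 and 0.0659% thinned), while Camp in IMQ keratinocytes stood at 0.456 and 0.203 UPM and in endothelial cells at 0 and 0.966 UPM. Unlike in neutrophils, Camp was not accompanied by Ngp: Camp UMIs numbered 0.401 and 0.358 per Ngp UMI in IMQ neutrophils and 92.5 and 12.1 per Ngp UMI in IMQ fibroblasts. In IMQ+SHP099 fibroblasts 222 and 244 Camp UMIs were counted with no Ngp UMI. The fibroblast with most Camp held 10.3% of the UMIs in IMQ 1 and 4.64% in IMQ 2.

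Lyz1 was counted mostly in macrophages of 1 library, Sham 2. In macrophages it stood at 35.4 and 1062 UPM in Sham, 23.6 and 89.4 UPM in IMQ, and 35.8 and 2.34 UPM in IMQ+SHP099, so the groups overlapped through Sham 1. The Sham 1 value rests on 7 of that library's 46 UMIs, in 2 of 52 macrophages. That of IMQ+SHP099 1 rests on 8 UMIs in 3 of 49 macrophages. The log2 fold change of IMQ over Sham was -3.17 (SE 1.06, adjusted p = 0.121). In Sham 2, 124 of 521 macrophages carried it, and macrophages held 86.5% of its 3729 UMIs. In the other libraries macrophages held 15.2% (Sham 1, where ungated cells held 56.5%), 36.6% (IMQ 1, where cells that passed several gates held 29.3%), 90.7% (IMQ 2), 80% (IMQ+SHP099 1, of 10 UMIs) and 25% (IMQ+SHP099 2, of 16 UMIs). Macrophages exceeded fibroblasts by 9.24 on the log2 scale (SE 0.796, adjusted p = 1.45e-06). Its paralog Lyz2 rose under IMQ, from 3743 and 7686 UPM in Sham macrophages to 17642 and 14862 UPM, a log2 fold change of 1.65 (SE 0.392, adjusted p = 0.0326). Lyz1 had no UMI in neutrophils of any library.

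Other antimicrobial genes were also called in keratinocytes. Of 19 other epithelial antimicrobial and alarmin genes, 17 were tested in keratinocytes, 8 were higher in IMQ and 1 lower (median log2 fold change 1.15), beside 14.7% of all genes called. Saa3 (serum amyloid A3) rose by 9.55 on the log2 scale (SE 0.970), Lcn2 (lipocalin-2, which binds bacterial siderophores) by 8.24 (SE 0.436) and Slpi (a secreted inhibitor of leukocyte proteases) by 6.61 (SE 0.753), while Wfdc21 had a log2 fold change of -5.05 (SE 0.595). Of 18 other granule and lysozyme genes, 11 were tested and 5 were higher, Lcn2 among them, since it is in both lists. Chil3, Mmp8 and Hp were also called, at low levels: in IMQ keratinocytes Chil3 stood at 3.77 and 4.46 UPM, Hp at 1.74 and 1.42 UPM and Mmp8 at 0.845 and 0.284 UPM (37 and 7 UMIs). In IMQ macrophages Chil3 stood at 5103 and 5374 UPM, Hp at 841 and 911 UPM and Mmp8 at 282 and 213 UPM, and the part of myeloid RNA in the keratinocyte values was not tested. Of 15 receptors and regulators, 10 were tested and only Cebpd, a C/EBP transcription factor, passed (2.39, SE 0.293).

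In macrophages, where 5.51% of all genes were called, 4 of 8 tested epithelial genes were higher in IMQ, with Wfdc21 at 10.51 (SE 1.18), Saa3 at 9.81 (SE 0.866), Lcn2 at 9.67 (SE 0.807) and Slpi at 6.62 (SE 0.696). Wfdc21 thus rose in macrophages and fell in keratinocytes, a difference that was not tested. Of the granule list, which also holds Lcn2, 8 of 12 tested were higher, with Chil3 at 8.37 (SE 0.562), Prtn3 at 7.17 (SE 0.683) and Hp at 6.81 (SE 0.683). Of the receptors and regulators 3 of 11 tested were higher, the formyl peptide receptors Fpr1 (4.05, SE 0.629) and Fpr2 (3.23, SE 0.678) and Cebpb (1.91, SE 0.461). In neutrophils, with the limits of 1 library given above, IMQ+SHP099 against IMQ called 6 of 14 tested granule genes lower, beside 3.15% of all genes, among them Prtn3 (14 and 37 UMIs in IMQ, 0 among the 83 neutrophils), Cebpe (-3.08, SE 0.974), Chil3 (-2.37, SE 0.310) and Ltb4r1 (-1.39, SE 0.361), and Saa3 (-2.78, SE 0.373) as 1 of 7 tested epithelial genes. Cebpe was also the 1 gene called, of 11 tested, among the receptors and regulators. The ungated cell carried 226 Chil3, 5 Prtn3 and 3 Cebpe UMIs, against 72, 0 and 1 in the 83 gated neutrophils of its library, so these counts move with where it is placed. No gene of the 3 lists was called for IMQ+SHP099 against IMQ in keratinocytes or macrophages.

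The genes whose levels followed each member most closely were found by Pearson's r of log2(UPM + 1) over 57 sums of a library and a class, among 10819 genes, as a description. The sums share libraries and depth. S100a8 and S100a9 were closest to Slpi (r = 0.891 and 0.869), with Slc7a11, a cystine transporter, and Stfa1, a stefin protease inhibitor, next. Defb3, Defb4 and Defb14 were closest to Sprr2b (r = 0.959), Sprr2j-ps (0.945) and Uox (0.951). Sprr2b encodes a small proline-rich protein of the cornified envelope. Defb6 was closest to Aadac (0.933) and then to Krt17 (0.929) and Cst6 (0.926). Both are in the marker list of the upper hair follicle, whose gate used Krt79 alone. Camp was closest to Prok2 (0.952), and Ngp and Ltf to Ceacam10 (0.990 and 0.966). Lyz1 was closest to Fcrls (0.910), Folr2 (0.896) and Clec10a (0.893), genes known from resident macrophages.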

How the data were processed

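Dorsal skin cells of 6 libraries were sequenced with the 10x Chromium 3′ chemistry. The authors deposited raw UMI counts per gene and barcode, made with Cell Ranger on mm10 (GRCm38) per the labels and the study's methods. The sequencer differs between the labels and the methods. Following the study, a barcode stayed in if its UMIs numbered below 100000, its genes below 6500 and its mitochondrial share below 10%, leaving 7382 to 10293 cells and 51968673 to 170319612 UMIs per library. Doublets were not removed in the values reported, and leaving out the top 6% of Scrublet scores was an alternative. Cells were classed by marker UMIs per 10000. The score limits were set after seeing the data, and cells passing several gates were kept apart. The members, markers and lists were chosen with earlier results of these data known.

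Counts were summed per library and class (at least 10 cells) and tested with edgeR 4.0.16 (R 4.3.3; TMM, filterByExpr, glmQLFit, glmQLFTest, all 3 groups in 1 fit, Benjamini-Hochberg over all genes tested, threshold 0.05), with the library as a block between classes. SEs were the log2 fold change over the square root of F. Folds of sums used a floor of 3 UMIs over the group where Sham was at 0. Shares of cells were also taken after thinning to 2000 UMIs per cell (seeded). Intervals and floors cover counting error only. The test was checked on simulated counts with known changes. Alternatives were library size without TMM, DESeq2 1.42.0, no filter, 2 groups only, the replicate block, each library left out, Leiden clusters (scanpy 1.11.5) for gates, 5% mitochondrial UMIs, no shared barcodes and doubled gate limits. A looser neutrophil gate, and leaving out libraries for neutrophils against macrophages, were added after seeing the data. Named list genes were those past the threshold in keratinocytes, macrophages or neutrophils, at most the 4 largest per list and comparison. The like-patterned genes were the 3 with the highest Pearson's r among genes of mean 5 CPM or more. Promoters came from RefSeq and coordinates from GENCODE vM21.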

Additional observations from a re-analysis of the deposited data

Results flagged for a closer look

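The IMQ response of Defb6 differed between layers: it was larger in suprabasal than in basal keratinocytes by 3.98 on the log2 scale (edgeR interaction test), as given above.

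Cells that passed no gate held member transcripts above their level in the Sham libraries. In IMQ 2 they held 315 UPM of S100a8. In IMQ+SHP099 2 they held 1350 UPM of S100a8, 1050 UPM of S100a9, 174 UPM of Camp, 205 UPM of Ngp and 26.4 UPM of Ltf. Of the 801 ungated cells of that library, 1 held 92.6% of the Camp UMIs, 587 of the 588 Ngp UMIs and all 76 Ltf UMIs. The same cell held 3292 of the 3871 S100a8 UMIs and 2578 of the 3018 S100a9 UMIs of these ungated cells. It also carried 316 Lcn2 and 226 Chil3 UMIs.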

How the results depend on the processing

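Of 347 member counts and shares recomputed, 305 kept their direction and side of the threshold (shares: moved under 1 SD), as did 1669 of 1745 log2 fold changes. Of the fold changes, 33 lost a call, 42 gained one and 1 turned. The 1 that turned was Defb6 in basal cells under Leiden clusters (-3.759, from 0.0882), a class with 115 and 19 IMQ cells. Members called for IMQ against Sham in all cells (0) became 3 with no filter, 8 with DESeq2 and 6 with the replicate block. T cells (0) became 2 with no filter, DESeq2, 2 groups, the replicate block or doubled gate limits, and 0 to 2 with 1 library left out. Endothelial cells (1) became 3 with no filter, 2 with DESeq2 or doubled limits, 0 with Leiden clusters, the 5% mitochondrial limit or without top Scrublet scores, and 0 to 2 with 1 library left out. Leaving out 1 library gave 0 to 3 in fibroblasts (0 without Sham 2), 1 to 3 in macrophages (1 without Sham 2) and 2 to 4 in the upper hair follicle (2 without Sham 2 or without IMQ 2). Leiden clusters left 2 and 32 Sham macrophages, so their macrophage fit for IMQ against Sham rested on 1 Sham library and did not keep the calls. For IMQ+SHP099 against IMQ, no filter gave 1 in keratinocytes, macrophages, fibroblasts and endothelial cells, Leiden clusters gave 3 in macrophages (Camp, Ngp and Ltf, lower) and 0 in neutrophils, and the looser gate 0 in neutrophils. The layer test gave 2 without TMM, and keratinocytes against fibroblasts 7 with no filter. The causes were not tested.

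Thinning to 2000 UMIs moved IMQ shares with a UMI to 86.0% (S100a8, keratinocytes), 44.8% (S100a8, macrophages), 13.0% (S100a8, fibroblasts), 53.7% (Defb6, suprabasal) and 1.34% (Camp, fibroblasts). Leiden clusters and doubled limits gave 74.3% and 71.9%, 82.0% and 85.5%, and 5.12% and 5.20% for S100a8 in macrophages, Defb6 and Camp. Replicate numbers recur across groups, but no source says they pair libraries. Deviations of same-numbered libraries correlated at 0.527 to 0.651 over genes in all cells and at -0.0199 to 0.274 within classes, and the replicate block changed no other count of called members beyond 1.5 times. With 2 libraries a group, counts of cells and UMIs limit every value in neutrophils and granular cells.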

Other observations

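Fibroblasts with and without a Camp UMI were set side by side in the 4 treated libraries, as a description chosen after the data were seen. There were 169 and 299 such fibroblasts in IMQ and 113 and 148 in IMQ+SHP099, and they were deeper than the rest (in IMQ 1 a median of 12784 against 8598.5 UMIs). Per UMI, Cxcl5, a neutrophil-attracting chemokine, was 3.04 to 5.02 times higher in those with Camp in each of the 4 libraries. Alpl (alkaline phosphatase) was 2.47 to 3.92 times, Pappa2 2.47 to 3.70 times, Gfra1 2.40 to 2.48 times and Col12a1 2.39 to 2.96 times higher. Chl1 was 1.82 to 2.74 times and Emb 1.75 to 2.47 times higher. Lbp, the lipopolysaccharide-binding protein, was 1.68 to 2.03 times higher. These were the 8 leading genes among those with at least 400 UMIs in Camp-positive fibroblasts, and no test was made.

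Cells that passed several gates also held granule transcripts. They numbered 291 and 468 in IMQ and held 23.5% and 16.1% of the Camp UMIs and 21.5% and 19.3% of the Ngp UMIs of their libraries, with 5 cells in each library holding 89.9% and 63.1% of that Ngp.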
